A study of Mus musculus with 6 samples.

Results

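The genes described here are 29 genes of cholesterol and fatty acid synthesis, measured in mouse oligodendrocyte precursor cells (OPCs), the glial cells from which myelin-forming oligodendrocytes arise. They were taken by symbol from a fixed list of enzymes and of the regulators that control them. All 29 were among the 18211 genes of the deposited table, and all 29 were among the 13792 genes expressed highly enough to be tested. The study compared OPCs from 3 wildtype libraries with OPCs from 3 DISC1-Δ3 libraries, at postnatal day 7. DISC1-Δ3 mice carried NG2-CreERTM and 1 floxed allele of exon 3 of DISC1 (exon3 fl/+). In these mice the promoter of NG2, the proteoglycan encoded by Cspg4, drives a Cre recombinase that is active only with tamoxifen, so that exon 3 is lost from a single allele in NG2-expressing cells. Wildtype mice lacked CreERT, and the labels give strain C57BL/6 for both groups. Both received tamoxifen by gavage on 4 days, from postnatal day 4 to 7, and OPCs were then immunopanned from the brain with an antibody to PDGFRα. Since the controls carried no Cre, effects of Cre and effects of the exon 3 deletion cannot be told apart. The labels do not say whether a library came from 1 mouse or from several, so p-values measure the spread between these libraries.

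Cholesterol is made from acetyl-CoA by way of mevalonate, squalene and lanosterol. In the brain nearly all of it is made locally, and myelinating cells need large amounts of cholesterol and of long fatty acids for their membranes. Transcription of most of these enzymes is driven by the sterol regulatory element binding proteins, encoded by Srebf1 and Srebf2. When sterols are low, SCAP carries these proteins from the endoplasmic reticulum to the Golgi for cleavage, and INSIG proteins hold the complex back when sterols are high.

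In the DISC1-Δ3 libraries 7 of the 29 genes fell and 2 rose, all by small amounts. The RNA in the libraries of both groups was not from OPCs alone. In DISC1-Δ3 libraries microglia markers summed to 10410 to 10850 RPKM and OPC markers to 938.1 to 985.2 RPKM. The genes that fell were the fatty acid desaturases Scd1 and Scd2, the regulator Srebf1, and the sterol enzymes Hmgcs1, Msmo1, Ebp and Dhcr7. The genes that rose were the thiolase Acat2 and the regulator Srebf2. The fitted changes of the 29 genes ran from -0.37 to 0.19 on the log2 scale. Their median was -0.06, against 0.01 over all tested genes, and the median size of the change regardless of direction was 0.107, against 0.191 over all tested genes. Genes were called at a Benjamini-Hochberg adjusted p under 0.05 in the quasi-likelihood test of edgeR, on counts with TMM scaling, which assumes that most genes do not change. By that rule 9 of the 29 genes (31%) were called, while 39.9% of all tested genes were. Higher calls made up 6.9% of the 29 genes and 20.4% of all tested genes. Lower calls made up 24.1% of the 29 genes and 19.5% of all tested genes. Both directions together thus lay below the background, and lower calls alone somewhat above it.

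The libraries held 13716619 to 16417219 reads, and the 29 genes had between 185 and 51461 reads in a library. Total read numbers overlapped between the groups, but the TMM factors were 0.970 to 0.973 in wildtype and 1.02 to 1.04 in DISC1-Δ3 libraries, a shift of 0.08 on the log2 scale. This shift is as large as many of the changes described here. RPKM values are reads scaled by the length of the transcript and the size of the library. They carry no such correction between libraries and therefore lie about that much higher in DISC1-Δ3 libraries than the fitted values. DISC1-Δ3 replicate 3 stood apart from the others of its group. Chi-square statistics of the counts, divided by their degrees of freedom, were 4.99 and 5.39 for its pairs and 1.80 to 2.97 for all other pairs of replicates. Without it 2 of the 29 genes were called higher and 8 lower, beside 2918 higher and 3314 lower of all 13792 tested genes. With all libraries these background counts were 2807 and 2691. Disc1, the targeted gene, had an RPKM of 3.51, 3.34 and 3.81 in wildtype libraries 1 to 3 and of 2.86, 2.44 and 2.85 in DISC1-Δ3 libraries 1 to 3, and fell by 0.45 (adjusted p = 0.000528). Counts per gene do not resolve exon 3.

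Most of the 29 genes were strongly expressed. Judged by mean RPKM, 22 of them lay above the 75th percentile of all tested genes. Scd2 was highest, with a wildtype mean of 602.2 ± 23.6 RPKM (SD, n = 3), which was 5.66-fold above the next gene, Msmo1, at 106.4 ± 6.36. Fdps, Srebf1, Hmgcs1, Srebf2 and Dhcr7 followed at 64.5 to 89.5, and Srebf2 and Dhcr7 did not differ beyond their spread (66.0 ± 0.91 and 64.5 ± 2.15). The lowest were Elovl6, Stard4 and Hsd17b7, at 3.63 ± 0.12, 3.46 ± 0.31 and 2.99 ± 0.14, where Elovl6 and Stard4 did not differ beyond their spread. Within a group the replicates varied by 0.657% to 12.2% of the mean, with a median of 3.82% in wildtype and 3.9% in DISC1-Δ3 libraries. The summed RPKM of all 29 genes was 1754 to 1800 in wildtype and 1705 to 1754 in DISC1-Δ3 libraries. Without Scd2 the sums were 1169 to 1178 and 1161 to 1184, and overlapped.

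**Figure D1:**
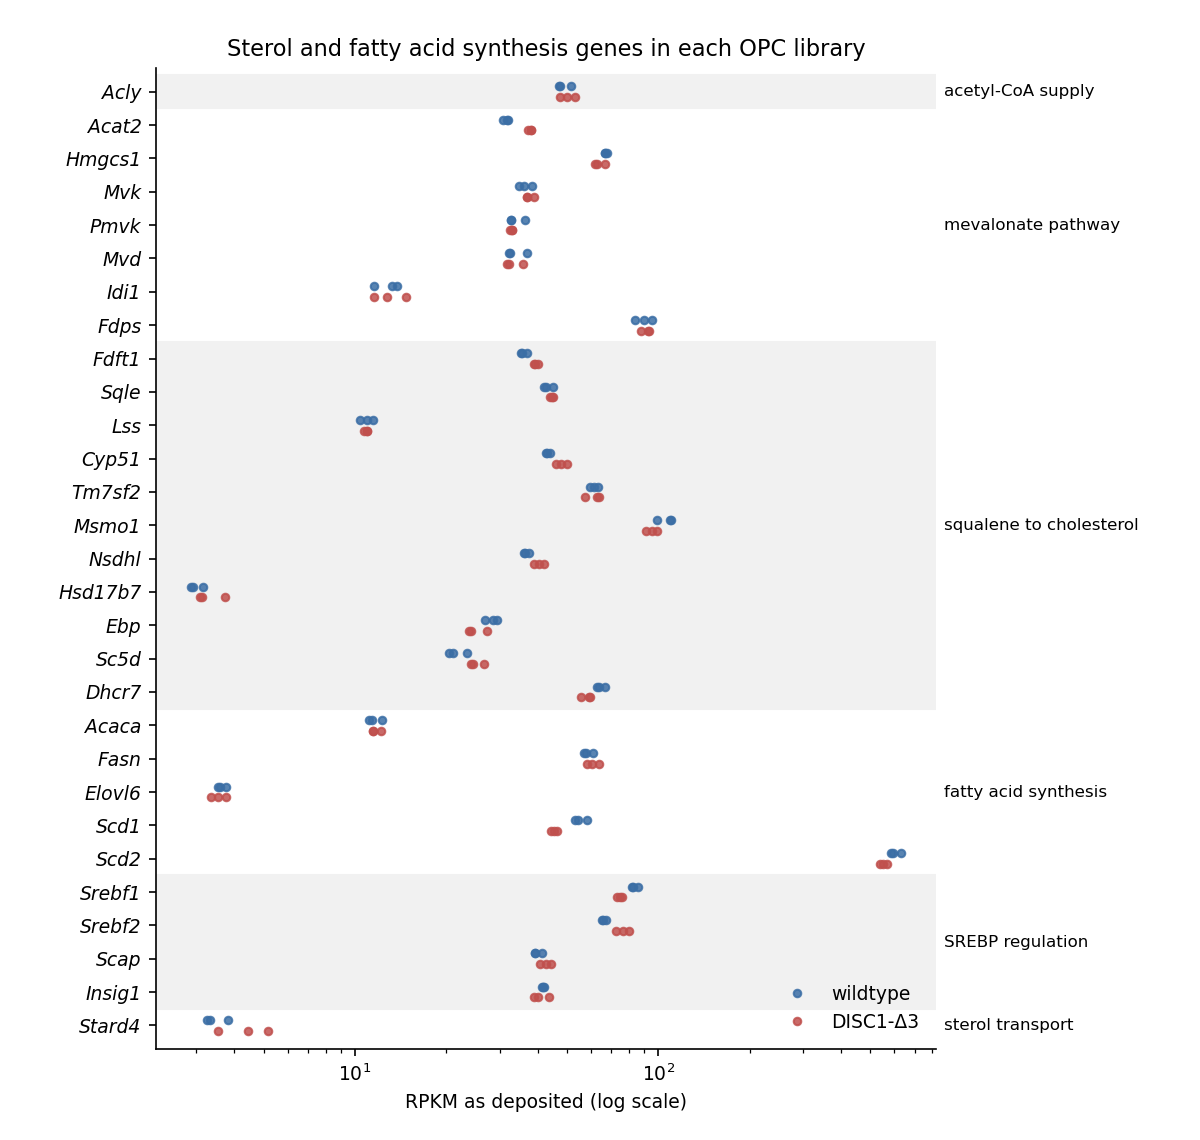
RPKM of each of the 29 genes on a log axis, with 1 point for each of the 3 wildtype (blue) and 3 DISC1-Δ3 (red) libraries, grouped by the gene's role. Scd2 stands 5.66-fold above the next gene, and the groups lie close together for nearly every gene. The points of the groups do not overlap for 11 genes, among them Scd1, Srebf1, Srebf2 and Acat2. In TMM-scaled counts the groups did not overlap for 13 of the 29 genes (44.8%) and for 49.6% of all tested genes.

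The stretches of 250 bases before the start site of Hmgcs1, Msmo1, Ebp, Srebf2 and Acat2 are shown because these 5 genes were called and have a single start site in the table of promoters used here. The sequences come from RefSeq, build GRCm38.p6, and run 5′ to 3′ on the strand of the gene. Capitals mark CCAAT boxes, the site of the factor NF-Y that works with the sterol regulatory element binding proteins (CCAAT, or ATTGG where the box lies on the other strand), and in Hmgcs1 also a match to the sterol regulatory element.
Hmgcs1: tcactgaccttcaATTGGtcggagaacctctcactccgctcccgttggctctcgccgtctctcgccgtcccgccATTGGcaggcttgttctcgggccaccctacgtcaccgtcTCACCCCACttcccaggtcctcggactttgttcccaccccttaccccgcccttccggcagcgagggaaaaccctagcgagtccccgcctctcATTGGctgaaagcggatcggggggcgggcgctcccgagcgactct
Msmo1: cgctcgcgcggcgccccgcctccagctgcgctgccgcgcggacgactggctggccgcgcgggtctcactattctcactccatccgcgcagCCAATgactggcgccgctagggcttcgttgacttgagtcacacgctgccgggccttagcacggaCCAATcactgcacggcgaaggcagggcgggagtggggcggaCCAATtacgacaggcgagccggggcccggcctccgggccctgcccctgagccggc
Ebp: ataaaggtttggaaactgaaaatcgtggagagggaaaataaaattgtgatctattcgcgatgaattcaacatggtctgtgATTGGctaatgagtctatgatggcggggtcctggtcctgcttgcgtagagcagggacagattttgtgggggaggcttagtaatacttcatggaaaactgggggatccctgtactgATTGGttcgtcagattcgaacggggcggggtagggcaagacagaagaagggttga
Srebf2: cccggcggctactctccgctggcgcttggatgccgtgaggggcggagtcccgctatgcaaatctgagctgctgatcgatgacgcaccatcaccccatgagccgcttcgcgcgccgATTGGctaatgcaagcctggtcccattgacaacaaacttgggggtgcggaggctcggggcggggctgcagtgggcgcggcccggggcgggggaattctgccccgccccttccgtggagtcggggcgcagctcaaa
Acat2: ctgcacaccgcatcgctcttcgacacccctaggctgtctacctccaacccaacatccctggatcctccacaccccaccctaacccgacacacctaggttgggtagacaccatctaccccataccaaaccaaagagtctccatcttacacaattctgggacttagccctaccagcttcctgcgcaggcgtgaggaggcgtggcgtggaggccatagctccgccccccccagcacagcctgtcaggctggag
The Hmgcs1 stretch is chr13:119690101-119690350 on the plus strand, Msmo1 is chr8:64733579-64733828 on the minus strand, and Ebp is chrX:8193513-8193762 on the minus strand. The Srebf2 stretch is chr15:82147019-82147268 on the plus strand and Acat2 is chr17:12960726-12960975 on the minus strand.

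Hmgcs1 held a sterol regulatory element (TCACNCCAC) 137 bases before its start and CCAAT boxes at 237, 176 and 45 bases. Msmo1 held CCAAT boxes at 160, 96 and 55 bases, Ebp at 170 and 55 bases, and Srebf2 at 135 bases. The Acat2 stretch held none. Promoters were found for 23 of the 29 genes, and not for Fdft1, Fdps, Scd1, Scd2, Sqle and Stard4. Motifs were searched on both strands in each window of 250 bases. A CCAAT box was present for 18 of the 23 genes (78.3%), against 40.3% of the 10964 tested genes with a window. Some genes have several windows. By window, 65.5% of those of the 23 genes held the box, against 33.8% of all windows. The count of all windows includes genes that were not tested, so it is a different background from the tested genes. A GC box (GGGCGG), the site of Sp1, was present for 19 genes (82.6%), against 63.4% of tested genes. By window it was present in 72.4% of those of the 23 genes and in 32.7% of all windows, untested genes included. Of all genes with a window, tested or not, 35.4% held it. An E-box (CACGTG) was present for 5 genes (21.7%), against 9.7% of tested genes, and these were Dhcr7, Hsd17b7, Insig1, Sc5d and Scap. By window the shares were 17.2% for the 23 genes and 6.02% for all windows, untested genes included. Only Hmgcs1 had the sterol regulatory element in this spelling (4.35% of the 23 genes), against 1.2% of tested genes. By window the shares were 3.45% for the 23 genes and 1.05% for all windows, untested genes included. CCAAT boxes occurred both among genes that fell (Hmgcs1, Msmo1, Ebp, Dhcr7 and Srebf1) and in Srebf2, which rose. These matches are a description of letters, and binding was not measured.

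The first steps, from acetyl-CoA to farnesyl diphosphate, held 1 gene that rose, 1 that fell and 6 that were not called. Acly, which makes acetyl-CoA from citrate in the cytosol, had 48.6 ± 2.41 RPKM in wildtype and 50.1 ± 2.78 in DISC1-Δ3 libraries, a fitted log2 change of -0.04 (95% interval -0.14 to 0.07).

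Acat2 (gene 110460, chr17:12943042-12960725), the cytosolic thiolase that joins acetyl-CoA units to acetoacetyl-CoA, had an RPKM of 31.82, 32.00 and 30.86 in wildtype libraries 1 to 3 and of 37.95, 37.99 and 37.07 in DISC1-Δ3 libraries 1 to 3. Every DISC1-Δ3 library lay above every wildtype library. It rose by 12.9%, a log2 fold change of 0.18 ± 0.06 (SE; adjusted p = 0.0175). The call was lost when wildtype replicate 3 (adjusted p = 0.0727), DISC1-Δ3 replicate 1 (0.0864) or DISC1-Δ3 replicate 2 (0.103) was left out. Of the stretches of 50 bases, the read length, in the longest Acat2 transcript, 45.9% also occur in another gene, chiefly Acat3 and Tcp1, and the deposited counts of Acat2 are split between genes. Acat3 fell by 0.91 (adjusted p = 0.000864) and Tcp1 rose by 0.12 (adjusted p = 0.0431) on the log2 scale, so the value of Acat2 is uncertain.

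Hmgcs1 (gene 208715, chr13:119690351-119708260) encodes the cytosolic HMG-CoA synthase, which adds a further acetyl unit to acetoacetyl-CoA. Its RPKM was 66.61, 66.91 and 67.53 in wildtype libraries 1 to 3 and 63.01, 61.62 and 66.79 in DISC1-Δ3 libraries 1 to 3. DISC1-Δ3 replicate 3 reached into the wildtype range on this scale, whereas after TMM scaling the groups did not overlap. Hmgcs1 fell by 10.2%, a log2 fold change of -0.16 ± 0.04 (SE; adjusted p = 0.00774). With library totals in place of TMM the change was -0.07 (adjusted p = 0.177). An antisense gene model, Gm48342, covers 13.6% of the stretches of 50 bases in its longest transcript.

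The kinases and the decarboxylase that turn mevalonate into isopentenyl diphosphate, Mvk, Pmvk and Mvd, had fitted log2 changes of -0.04, -0.13 and -0.11, none of them called. Wildtype means were 36.4 ± 1.75, 33.9 ± 2.13 and 33.8 ± 2.67 RPKM, and DISC1-Δ3 means were 37.5 ± 1.14, 32.9 ± 0.33 and 33.2 ± 2.27 RPKM. Idi1, the isomerase of isopentenyl diphosphate, had 12.8 ± 1.15 RPKM in wildtype and 12.99 ± 1.58 in DISC1-Δ3 libraries (log2 change -0.06, interval -0.25 to 0.12). Fdps, which makes farnesyl diphosphate, had 89.5 ± 5.74 and 91.1 ± 3.13 RPKM (log2 change -0.06, interval -0.17 to 0.06). Over the 7 genes from Acat2 to Fdps the median log2 change was -0.06, and 28.6% were called, against 39.9% of all tested genes.

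From squalene to cholesterol 3 of 11 genes fell, namely Msmo1, Ebp and Dhcr7, and none of the 11 rose. Lower calls made up 27.3% of the 11 genes and 19.5% of all tested genes, while 20.4% of all tested genes were called higher. With library totals 4 of the 11 genes were called higher and 2 lower, beside 29.9% and 13.3% of all tested genes. The fitted changes of Msmo1, Ebp and Dhcr7 lay between -0.25 and -0.24, while the median over the 11 genes was -0.04.

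Msmo1 (gene 66234, chr8:64718123-64733578) encodes the sterol methyl oxidase that begins the removal of the methyl groups at carbon 4 of the ring system. Its RPKM was 99.06, 110.42 and 109.71 in wildtype libraries 1 to 3 and 91.22, 95.65 and 98.99 in DISC1-Δ3 libraries 1 to 3. The groups did not overlap, although wildtype replicate 1 lay only just above DISC1-Δ3 replicate 3. Msmo1 fell by 15.4%, a log2 fold change of -0.24 ± 0.05 (SE; adjusted p = 0.00111).

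Ebp (gene 13595, chrX:8185329-8193512), the sterol isomerase that moves a ring double bond, had an RPKM of 26.75, 29.36 and 28.50 in wildtype libraries 1 to 3 and of 27.31, 24.19 and 23.69 in DISC1-Δ3 libraries 1 to 3. DISC1-Δ3 replicate 1 lay within the wildtype range on this scale. The fitted log2 change was -0.25 ± 0.07 (SE; adjusted p = 0.0109), a fall of 16.1%. The call was lost without wildtype replicate 2 (-0.22, adjusted p = 0.0656) and with library totals (-0.17, adjusted p = 0.0696).

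Dhcr7 (gene 13360, chr7:143823167-143848410), the reductase of the final step from dehydrocholesterol to cholesterol, had an RPKM of 66.93, 63.84 and 62.80 in wildtype libraries 1 to 3. In DISC1-Δ3 libraries 1 to 3 it had 59.52, 59.02 and 55.62, all below the wildtype libraries. It fell by 15.2%, a log2 fold change of -0.24 ± 0.05 (SE; adjusted p = 0.000992).

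The other 8 genes of this stretch were not called. Fdft1 (squalene synthase), Sqle (squalene epoxidase) and Lss (lanosterol synthase) had fitted log2 changes of 0.05, -0.04 and -0.10. Cyp51, the lanosterol demethylase, had 43.1 ± 0.65 RPKM in wildtype and 47.9 ± 1.89 in DISC1-Δ3 libraries, with a change of 0.07 (interval -0.02 to 0.17). The sterol reductase Tm7sf2 had a change of -0.08, and Nsdhl and Hsd17b7, which act with Msmo1 in demethylation, had changes of 0.06 and 0.07. Sc5d, a sterol desaturase acting just before Dhcr7, had 21.7 ± 1.58 RPKM in wildtype and 25.1 ± 1.32 in DISC1-Δ3 libraries, a change of 0.12 (interval -0.01 to 0.26; adjusted p = 0.139), and was called without wildtype replicate 1 (0.19, adjusted p = 0.0366). Neighbouring enzymes therefore had fitted changes of opposite sign, as with Ebp and Sc5d. Reads of Fdft1 may be shared with Ctsb, whose exons overlap it on the opposite strand and which fell by 0.18 (adjusted p = 0.0017). Cyp51 and Srebf1 overlap Akap9 (-0.15, adjusted p = 0.53) and Rai1 (-0.01, adjusted p = 0.929) in the same way. Whether the counting used strand is not stated.

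Among the 5 genes of fatty acid synthesis both desaturases fell and the other 3 were not called. Calls thus made up 40.0% of these 5 genes, all of them lower. Of all tested genes 39.9% were called, and 19.5% were called lower. Scd1 (gene 20249, chr19:44394450-44407709) encodes a stearoyl-CoA desaturase, which turns saturated into monounsaturated fatty acids. It had an RPKM of 58.42, 54.32 and 52.95 in wildtype libraries 1 to 3 and of 46.39, 44.36 and 45.23 in DISC1-Δ3 libraries 1 to 3, with a clear gap between the groups. It fell by 22.4%, the largest change among the 29 genes, with a log2 fold change of -0.37 ± 0.05 (SE; adjusted p = 5.15e-06).

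Scd2 (gene 20250, chr19:44293676-44306864), the desaturase that prevails in brain, had an RPKM of 629.04, 584.93 and 592.53 in wildtype libraries 1 to 3. In DISC1-Δ3 libraries 1 to 3 it had 569.62, 552.24 and 537.81, below the wildtype libraries though close to the lowest of them. It fell by 13.2%, a log2 fold change of -0.20 ± 0.04 (SE; adjusted p = 0.00132). Scd1 and Scd2 share 4.66% and 4.01% of their stretches of 50 bases with other genes, each other included, and their counts are split. Scd3 and Scd4, the other copies, were below the expression limit.

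Acaca, the acetyl-CoA carboxylase, had 11.6 ± 0.60 RPKM in wildtype and 11.7 ± 0.43 in DISC1-Δ3 libraries, a fitted log2 change of -0.07 (interval -0.18 to 0.04). Fasn, the fatty acid synthase, had 58.5 ± 2.21 and 60.8 ± 2.77 RPKM, a change of -0.03 (interval -0.12 to 0.07). Elovl6, which lengthens saturated chains, had 3.63 ± 0.12 and 3.55 ± 0.20 RPKM, a change of -0.11 (interval -0.29 to 0.06). Whether the changes of the desaturases differed from those of the other 3 genes was not tested. Of the Acaca transcript, 52.6% of the stretches of 50 bases also occur in the gene model Gm5182, so the value of Acaca is uncertain.

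The regulators Srebf1 and Srebf2 moved in opposite directions. Srebf1 (gene 20787, chr11:60199084-60224186), whose product acts chiefly on fatty acid genes, had an RPKM of 85.90, 82.78 and 82.11 in wildtype libraries 1 to 3 and of 75.77, 74.94 and 73.09 in DISC1-Δ3 libraries 1 to 3. All DISC1-Δ3 libraries lay below all wildtype libraries. It fell by 15.7%, a log2 fold change of -0.25 ± 0.04 (SE; adjusted p = 0.00015).

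Srebf2 (gene 20788, chr15:82147269-82205379), whose product acts chiefly on sterol genes, had an RPKM of 67.05, 65.59 and 65.38 in wildtype libraries 1 to 3 and of 79.76, 76.57 and 72.79 in DISC1-Δ3 libraries 1 to 3. Here all DISC1-Δ3 libraries lay above all wildtype libraries. It rose by 8.94%, a log2 fold change of 0.12 ± 0.05 (SE; adjusted p = 0.0415). That call was near the threshold, and it was lost under DESeq2 (adjusted p = 0.0837), with median-of-ratios factors or no expression filter, and when any library other than DISC1-Δ3 replicate 3 was left out (adjusted p = 0.0601 to 0.353).

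The ratio of Srebf1 to Srebf2 within a library does not depend on the scaling between libraries. It was 1.28, 1.26 and 1.26 in wildtype libraries 1 to 3, where Srebf1 prevailed in RPKM. In DISC1-Δ3 libraries 1 to 3 it was 0.950, 0.979 and 1.0, so that both genes were at about the same level. The log2 ratio differed by -0.37 (exact permutation test, two-sided, p = 0.1, the smallest p that 3 libraries against 3 can give). Since every DISC1-Δ3 library lay below wildtype for Srebf1 and above it for Srebf2, that test could give no other p and adds nothing. Scd1 made up 8.50%, 8.50% and 8.20% of the summed RPKM of Scd1 and Scd2 in wildtype libraries 1 to 3 and 7.53%, 7.44% and 7.76% in DISC1-Δ3 libraries 1 to 3. The log2 ratio of Scd1 to Scd2 differed by -0.16, and again the groups did not overlap (exact permutation test, two-sided, p = 0.1). Both ratios were chosen after the values of their genes had been seen.

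**Figure D2:**
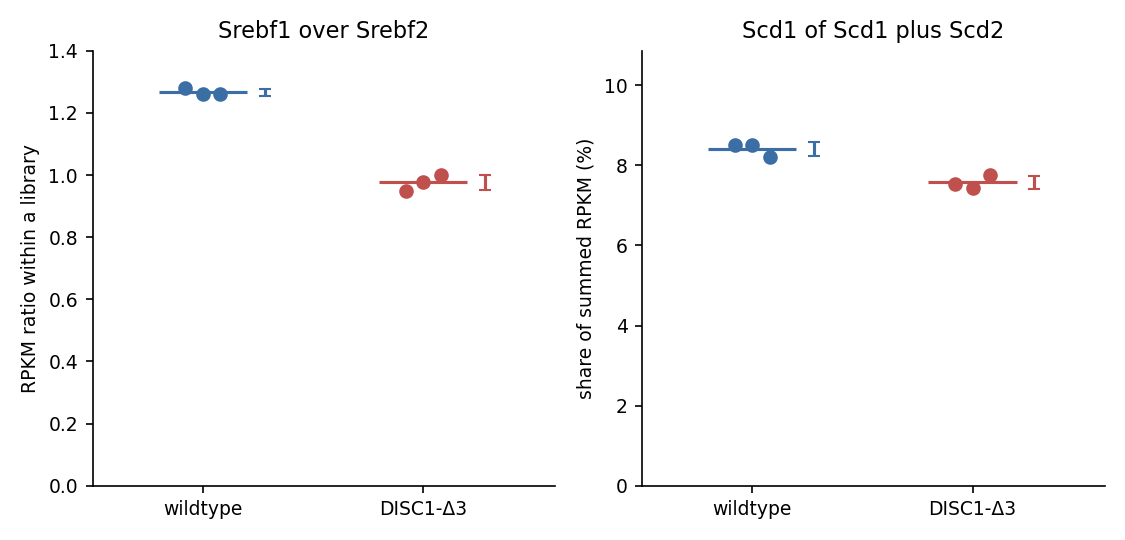
Left, RPKM of Srebf1 over that of Srebf2 within each library, and right, Scd1 as a percent of the summed RPKM of Scd1 and Scd2. Points are libraries, horizontal lines group means and bars the SD (n = 3). The Srebf1 to Srebf2 ratio was 1.26 to 1.28 in wildtype and 0.950 to 1.0 in DISC1-Δ3 libraries.

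Scap, the escort protein of the sterol regulatory element binding proteins, had 39.9 ± 1.32 RPKM in wildtype and 42.5 ± 1.76 in DISC1-Δ3 libraries, a fitted log2 change of 0.01 (interval -0.09 to 0.11). Insig1, which retains SCAP when sterols are high and is itself a target of these factors, had an RPKM of 41.67, 41.42 and 42.00 in wildtype and of 40.10, 39.00 and 43.58 in DISC1-Δ3 libraries. Its log2 change was -0.11 (adjusted p = 0.093), and it was called only without DISC1-Δ3 replicate 3 (-0.15, adjusted p = 0.013). Stard4, a carrier of cholesterol between membranes, had an RPKM of 3.32, 3.25 and 3.82 in wildtype and of 4.43, 3.53 and 5.17 in DISC1-Δ3 libraries. It had the largest positive value among the 29 genes, 0.19 on the log2 scale, with an interval from -0.03 to 0.41, and was not called (adjusted p = 0.152).

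For the 20 genes that were not called, the 95% intervals bound how far they could have moved under TMM scaling. In 14 of them the interval lay within -0.25 to 0.25 on the log2 scale, which corresponds to a fall of 15.9% or a rise of 18.9%. The lowest bound was -0.29, for Elovl6, and the highest was 0.41, for Stard4, both weakly expressed. These intervals leave out the shift of 0.08 between scalings. With library totals Fdft1, Cyp51, Nsdhl, Sc5d and Stard4, all among the 20, were called higher (edgeR adjusted p = 0.00849 to 0.0463).

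**Figure D3:**
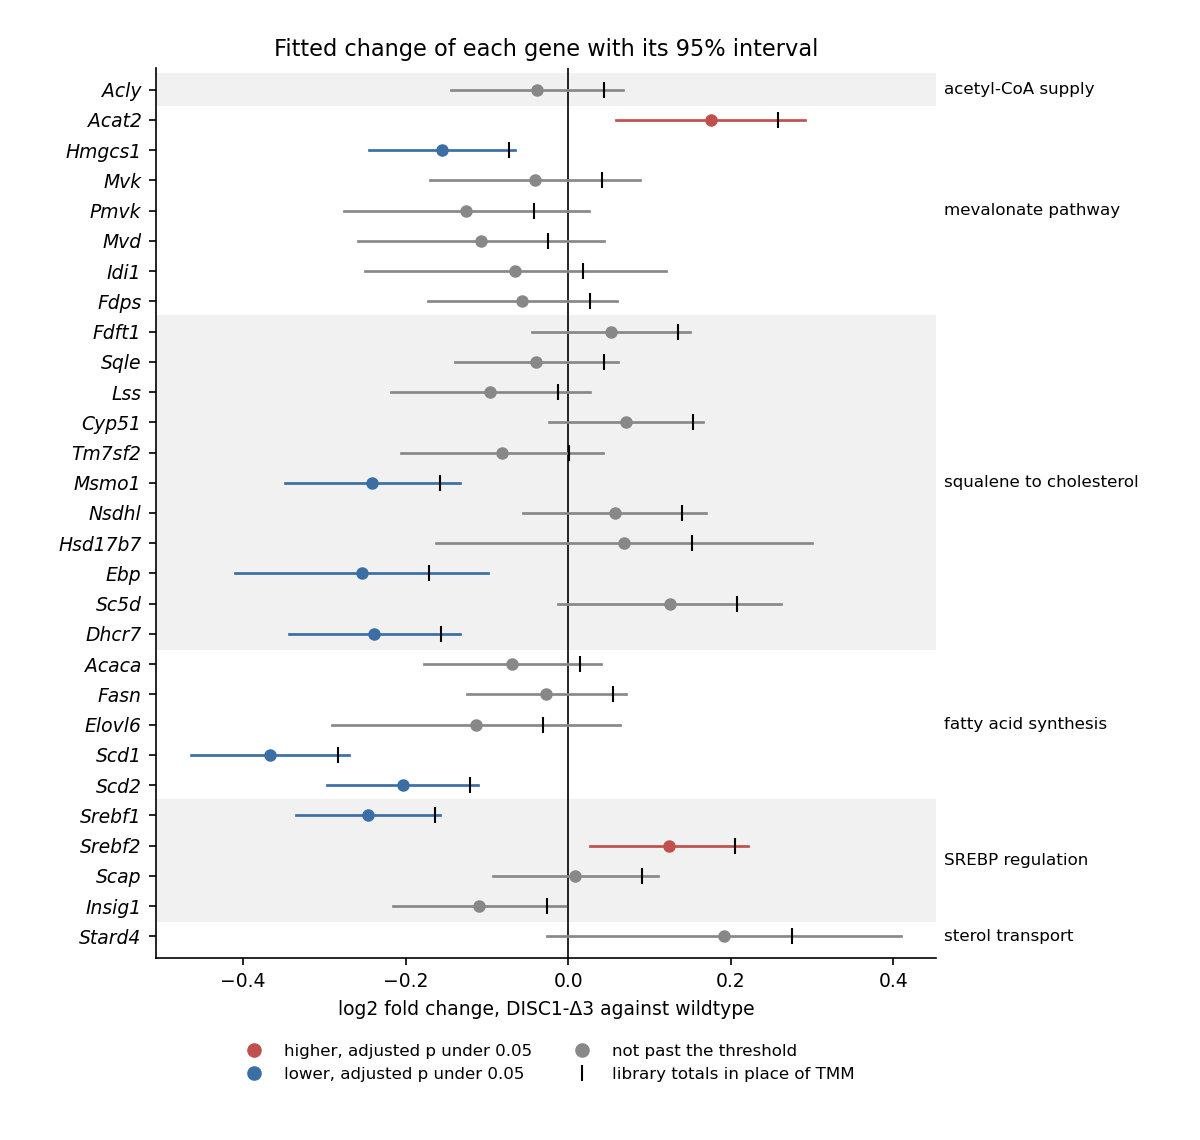
Fitted log2 fold change of each of the 29 genes with its 95% interval, DISC1-Δ3 against wildtype, with called genes in red (higher) or blue (lower) and the others in grey. Black ticks show the value with library totals in place of TMM, which lies about 0.08 to the right for every gene and crosses 0 for several grey ones.

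The scaling between libraries moved the calls among the 29 genes. With library totals in place of TMM, 7 genes were called higher and 5 lower, against a background of 29.9% of tested genes higher and 13.3% lower. Called higher under library totals were Acat2, Srebf2, Fdft1, Cyp51, Nsdhl, Sc5d and Stard4, and called lower were Scd1, Scd2, Srebf1, Msmo1 and Dhcr7. The higher share of all calls was 51.1% with TMM and 69.2% with library totals. The median of the 29 genes moved to 0.02 and that of all tested genes to 0.09, so the 29 genes remained about 0.07 below the median of all genes under both. Under all 4 scalings tried with edgeR the same 6 genes kept their call, namely the 5 lower genes just named and Acat2. Those 5 genes were also called lower in every one of 16 alternatives that kept the threshold, which included other tests, other filters and each library left out in turn. The medians of the mevalonate genes and of the squalene to cholesterol genes lay above 0 with library totals. Without regard to the test, the groups did not overlap in scaled counts for 13 of the 29 genes (44.8%), against 49.6% of all tested genes.

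Genes around these pathways, from lists that did not contain the 29, gave a mixed account. Of 11 other sterol synthesis enzymes 2 rose and 1 fell, with a median of 0.02. The genes that rose were Por (0.19), which supplies electrons to Cyp51 and Sqle, and Dhdds (0.19), which acts in dolichol synthesis. The call of Dhdds was lost under DESeq2 (adjusted p = 0.0648) and without wildtype replicate 2, DISC1-Δ3 replicate 1 or DISC1-Δ3 replicate 2 (adjusted p = 0.0759 to 0.19). Of 10 other genes of the sterol regulatory element binding protein pathway 2 fell, among them Rnf139 (-0.32), a ubiquitin ligase of the endoplasmic reticulum. Of 21 other fatty acid synthesis genes tested, 10 fell and 1 rose, with a median of -0.12. Falls included Mlxipl (-0.52), the carbohydrate-responsive transcription factor, and Thrsp (-0.30), which was called under 2 of the 4 scalings only. Acacb, the mitochondrial acetyl-CoA carboxylase, was at the threshold (-0.37, adjusted p = 0.0499). Its call was lost under DESeq2 (adjusted p = 0.126) and when any 1 of the 6 libraries was left out (adjusted p = 0.0518 to 0.19). With library totals 4 of the 21 genes were called lower and 3 higher.

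Lists of sterol uptake and efflux genes had medians further below 0 than the 29 genes. Of 10 uptake genes tested, 6 fell and 1 rose, with a median of -0.22. Among them Mylip, a ubiquitin ligase of lipoprotein receptors, fell by 0.50, the lysosomal cholesterol carrier Npc2 fell by 0.38 and Lrp1, an apolipoprotein E receptor, fell by 0.33. Of 13 liver X receptor (LXR) targets and efflux genes 6 fell and 1 rose, with a median of -0.16. Cyp27a1, a sterol hydroxylase, fell by 1.0, and the cholesterol transporters Abca1 and Abcg1 fell by 0.82 and 0.73. A further 6 genes of that list were not called. Srebf1, Scd1 and Mylip, all of which fell, are also known as LXR targets. The other genes of the 29 were not sorted by whether LXR acts on them, and a part of LXR in these changes was not tested. Of 8 enzymes of myelin lipids 2 fell and 1 rose, Ugt8a (-0.53) and Sptlc2 (-0.21) falling and Smpd3 (0.85) rising. With library totals Sptlc2 was not called (adjusted p = 0.11), and 2 of the 8 enzymes were called higher and 1 lower. Over all these lists 33 of 73 genes (45.2%) were called, near the 39.9% of all tested genes. The 6 higher and 27 lower genes (8.22% and 37.0%) stand beside 20.4% and 19.5% of all tested genes, and with library totals 11 were higher and 18 lower, where 29.9% and 13.3% of all tested genes were.

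**Figure D4:**
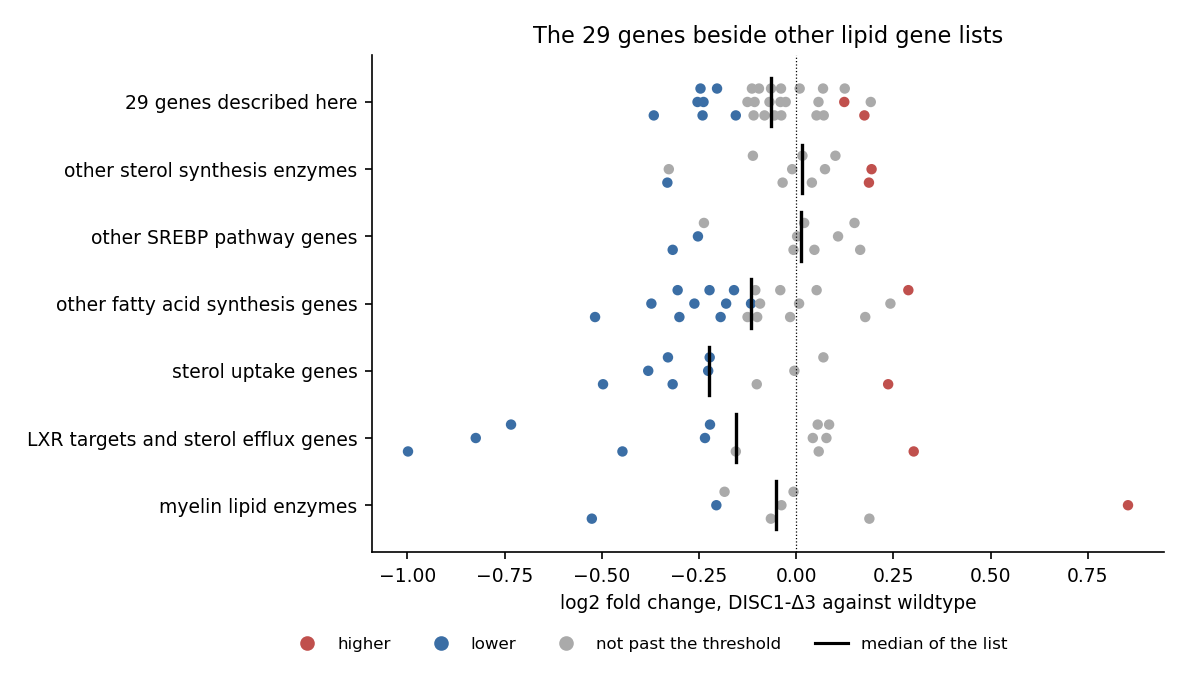
Log2 fold changes of the 29 genes and of 6 further lists of lipid genes, 1 point a gene, in red or blue where called higher or lower and grey otherwise, with the median of each list as a black line. The 29 genes stay between -0.37 and 0.19, while the LXR and efflux genes reach -1.0 (Cyp27a1).

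Markers of OPCs and of other cell types also differed between the groups, in both directions. Pdgfra, the target of the panning antibody, had an RPKM of 17.16 to 18.06 in wildtype and 24.96 to 26.79 in DISC1-Δ3 libraries. Of 10 OPC markers 7 rose and 2 fell, with a median of 0.47 and a summed RPKM of 874.9 to 908.0 in wildtype and 938.1 to 985.2 in DISC1-Δ3 libraries. All 10 microglia markers fell, with a median of -0.51, and their summed RPKM was 14950 to 15240 in wildtype and 10410 to 10850 in DISC1-Δ3 libraries, well above that of the OPC markers. Of 9 mature oligodendrocyte markers tested 6 fell, with sums of 2517 to 2550 and 2312 to 2347 RPKM. Of 10 astrocyte markers 7 fell and 2 rose, with sums of 2219 to 2277 and 1977 to 2063 RPKM. Of 10 neuron markers 6 rose (352.7 to 354.5 and 420.6 to 440.9 RPKM), and of 9 endothelial and pericyte markers 8 rose (252.0 to 266.6 and 344.2 to 351.4 RPKM). Of 10 immediate-early genes 6 fell and 1 rose, with sums of 4893 to 4985 and 4072 to 4174 RPKM. Premyelinating oligodendrocyte markers (2 of 8 rose, 2 fell) and proliferation genes (2 of 10 rose, 1 fell) were divided. No marker on any of these lists was at 0 in every library. Their part in the changes of the 29 genes was not tested, and in bulk RNA fewer cells of a type cannot be told apart from less RNA per cell.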

How the data were processed

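Poly(A) RNA from freshly isolated OPCs was sequenced as single-end reads of 50 bases on a BGIseq500, in 6 libraries. The authors deposited, for 18211 genes, expected counts, in which reads matching several genes are divided between them (90.2% of values above 0 are whole), and RPKM values, which divide counts by the length of the transcript and the size of the library. The submitters' processing notes name mm10 and Bowtie2 2.2.5, without their roles, and the study names DESeq2. The counting tool, the annotation and the use of strand are not given in the sources used here. The table also holds 4 columns of averages per group, left out here.

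Counts were rounded and tested with edgeR 4.0.16 (quasi-likelihood, TMM) in R 4.3.3, with genotype as the only term, over the 13792 genes with RPKM of at least 0.5 in at least 3 libraries. Two-sided p-values received the Benjamini-Hochberg adjustment over those genes, and the threshold was 0.05. Alternatives were DESeq2 1.42.0 and limma 3.58.1, the latter on log2(RPKM + 1) and log2(RPKM + 0.1). Further alternatives were other scalings, other filters, a robust fit, a replicate block, a minimum log2 fold change of 0.5 and each library left out. The biological coefficient of variation was 5.44%. The test was checked on simulated counts.

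The genes and lists were chosen with earlier results of these data known. All 29 genes are accounted for, and of each other list up to 3 genes with the largest change, past the threshold and without overlap, were eligible to be named, besides Disc1, Cspg4 and a few fixed genes that are not reported here. Genes that share reads or exons with these (Acat3, Tcp1, Ctsb, Akap9, Rai1, Gm5182 and Gm48342), the copies Scd3 and Scd4, Pdgfra and the ratios within libraries were chosen after values were seen. Cspg4, the gene whose promoter drives Cre, had a log2 fold change of 0.46. Coordinates and promoters are from RefSeq, GRCm38.p6, which is the assembly of mm10. Intervals cover the spread between these libraries only, and counting error is understated where PCR copied a molecule, since no molecular identifiers are stated.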

Additional observations from a re-analysis of the deposited data

How the results depend on the processing

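Of the 29 genes 7 were called lower and 2 higher. The count of higher genes was 1 with DESeq2, with median-of-ratios factors and with no filter, 6 with limma at either pseudocount, and 7 with library totals and with RPKM sums. The count of lower genes lay between 5 and 8 in all these settings and with 1 library left out. Leaving out 1 library gave 0 to 2 higher genes, with 0 without wildtype replicate 3, DISC1-Δ3 replicate 1 or DISC1-Δ3 replicate 2, and 1 without wildtype replicate 2. At a log2 fold change of at least 0.5, 0 genes were higher and 0 were lower. Counts over all tested genes moved as well. Higher calls were 2807 with edgeR and TMM, 2229 with DESeq2 and 2689 with median-of-ratios factors. They were 3983 and 3965 with limma at pseudocounts of 1 and 0.1, 4126 with library totals and 4108 with RPKM sums. Lower calls were 2691 with edgeR and TMM, 2371 with DESeq2, 1774 and 1763 with limma, 1836 with library totals and 1745 with RPKM sums. With 1 library left out there were 2149 to 2918 higher and 2149 to 3314 lower. The median of the 29 genes, -0.06, was -0.073 with DESeq2, -0.087 to -0.052 with 1 library left out, and above 0 at 0.013 with limma at either pseudocount, 0.019 with library totals and 0.023 with RPKM sums. Those 4 settings also turned the sign of 7 of the 29 genes at 2 decimals, none of them called, since they lack the TMM shift. The values with limma at pseudocounts of 1 and 0.1, library totals and RPKM sums were 0.04, 0.04, 0.04 and 0.05 for Sqle, 0.01, 0.01, 0.02 and 0.02 for Idi1, and 0.03 in all 4 for Fdps. They were 0.04, 0.05, 0.04 and 0.05 for Mvk, 0.05, 0.05, 0.06 and 0.06 for Fasn, 0.01, 0.01, 0.01 and 0.02 for Acaca, and 0.04, 0.04, 0.04 and 0.05 for Acly. With 1 library left out, values ran from -0.04 to 0.11 for Hsd17b7, -0.04 to 0.04 for Scap and -0.08 to 0.01 for Fasn. Sharing a replicate number did not pair the libraries, since same-numbered libraries had correlations of 0.058, 0.022 and -0.049 in their deviations from the group means. With the replicate block 2 genes were higher and 7 lower, and 5429 genes were called in all. The cause of the other differences between settings was not tested. Stard4 and Hsd17b7, among the genes with the fewest reads, had the widest intervals.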
